A study of Homo sapiens with 6 samples.

Results

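The 9 genes described here encode proteins that bind elements in the 3′ untranslated regions (3′ UTRs) of mRNAs: ZFP36, ZFP36L1, ZFP36L2, KHSRP, ELAVL1, TIA1, TIAL1, CELF1 and PUM2. They were taken by symbol, and all 9 were found among the 24462 distinct gene symbols of the deposited counts, each on a single entry. There were 3 libraries of H460 cells held without glutamine for 24 h, in medium with 10% dialyzed serum (depleted), and 3 libraries of glutamine-replete H460 cells (replete), whose serum over the same hours the labels do not spell out. H460 is an established human lung cancer line of large-cell origin, used here as a single line without other genetic changes. Reads came from the 3′ ends of polyadenylated transcripts, and values are given as CPM, which are counts set on the same total for every library. Libraries held 7550849 to 10914899 counts, and a count of 0 allows up to 3 counts, or 0.275 to 0.397 CPM, a limit for counting error only. Separate cultures are not stated in the labels, so p-values here rest on a spread between libraries that may be technical.

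AU-rich elements are stretches of repeated AUUUA in the 3′ UTRs of many short-lived mRNAs, such as those of cytokines, immediate early factors and cell cycle regulators. Proteins that bind there decide how long the mRNA lasts or whether it is translated. The zinc-finger proteins ZFP36 (tristetraprolin), ZFP36L1 and ZFP36L2 recruit the CCR4-NOT deadenylase and shorten the life of the bound mRNA, and KHSRP brings in decay enzymes. ELAVL1 (HuR) generally protects its targets, while TIA1 and TIAL1 hold back translation and join stress granules. CELF1 prefers GU-rich elements and PUM2 prefers Pumilio elements, both of which also lead to deadenylation, so these proteins are AU-rich element binders in a wide sense only.

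Several of these binders have AU-rich elements in their own annotated 3′ UTRs, and the sites are shown because they are the kind of sequence that the ZFP36 family and ELAVL1 bind. In the longest annotated 3′ UTR of each gene (GENCODE 29), the AU-rich nonamer TTATTTATT was present once in each of ZFP36, ZFP36L1, ZFP36L2 and ELAVL1 and in none of the other members. The nonamer was present in 9.65% of the 3′ UTRs of 11305 tested genes. The sites are given as DNA letters of the mRNA strand, 5′ to 3′, with the nonamer in capitals and 10 bases on each side in lower case.
ZFP36: tatgacgactTTATTTATTctaatatgat
ZFP36L1: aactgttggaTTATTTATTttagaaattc
ZFP36L2: actatttaacTTATTTATTatcttgtgaa
ELAVL1: atttatgtatTTATTTATTgaagtgtgaa
The shorter heptamer TATTTAT, which lies within the nonamer, occurred 3 times in each of the 3 ZFP36 paralogs and 5 times in ELAVL1, where the matches overlap or follow closely. It occurred once in TIA1, TIAL1, CELF1 and PUM2 and was not in the 764 bases of the KHSRP 3′ UTR, against 36.4% of all tested 3′ UTRs that hold it. Among tested 3′ UTRs above 2207 bases, 64.2% held the heptamer and 19.05% the nonamer. The 3′ UTRs of ZFP36L1, ELAVL1, TIA1, TIAL1, CELF1 and PUM2 exceed that length, so the shares over all genes are low as a comparison for them. Searches covered the mRNA strand only, and a match is a description of the letters, not a bound site. Which 3′ ends these cells used was not examined, so an expressed mRNA may end before a site.

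The Pumilio motif TGTANATA, where N is any base, was found in 30.7% of tested 3′ UTRs and in 2 members. The 3′ UTRs of both members are above 2207 bases, and 54.99% of tested 3′ UTRs of that length held the motif. Both PUM2 itself and TIAL1 held 2 matches, shown with the 8 motif bases in capitals.
PUM2, first match: tttatagagaTGTATATAgaattatagt
PUM2, second match: acagaaatatTGTATATActtacatatg
TIAL1, first match: tgatacatatTGTAAATAttcaataact
TIAL1, second match: ttacttggtaTGTAAATAccttgattaa
A GU-rich stretch, TGTTTGTTT, occurred once in ELAVL1, CELF1 and PUM2 and in 9.95% of all tested 3′ UTRs. It was in 20.8% of those above 2207 bases, the class in which these members lie.

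ELAVL1, the stabilising binder, was the only member that fell in glutamine-depleted cells, to 0.531 of its replete level. The 5 members that rose were TIA1, by 1.81-fold, CELF1 by 1.77-fold, TIAL1 by 1.73-fold, ZFP36L1 by 1.45-fold and PUM2 by 1.17-fold, and ZFP36, ZFP36L2 and KHSRP did not pass the test. Calls come from edgeR's quasi-likelihood test at a Benjamini-Hochberg adjusted p under 0.05 over all 12739 genes tested, a filter that all 9 members passed. In that test 39.1% of all genes were higher and 39.4% lower in depleted cells, or 78.6% called in either direction, so 5 higher and 1 lower of 9 members is to be read against a transcriptome in which most genes were called. The CPM ranges of the groups did not overlap for 5 of the 9 members, against 81.0% of all tested genes. Members' changes were not large for this contrast: the median absolute log2 fold change of all genes was 0.90, and 49.6% of genes changed by more than ELAVL1. The members' median log2 fold change was 0.54, beside −0.02 over all genes tested.

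Levels in CPM are set on library totals, while fold changes rest on trimmed-mean (TMM) scaling, under which a gene with equal CPM in both groups comes out somewhat higher in depleted cells. Depleted libraries had TMM factors of 0.917 to 0.929 and replete libraries of 1.08 to 1.09. With library totals alone, log2 fold changes shifted by a median of −0.23, and 4132 genes were higher and 5924 lower, in place of 4987 and 5025. That scaling left ELAVL1 lower and TIA1, TIAL1, CELF1 and ZFP36L1 higher with an adjusted p under 0.05, whereas PUM2 no longer passed and the signs of ZFP36L2 and KHSRP turned.

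**Figure D1:**
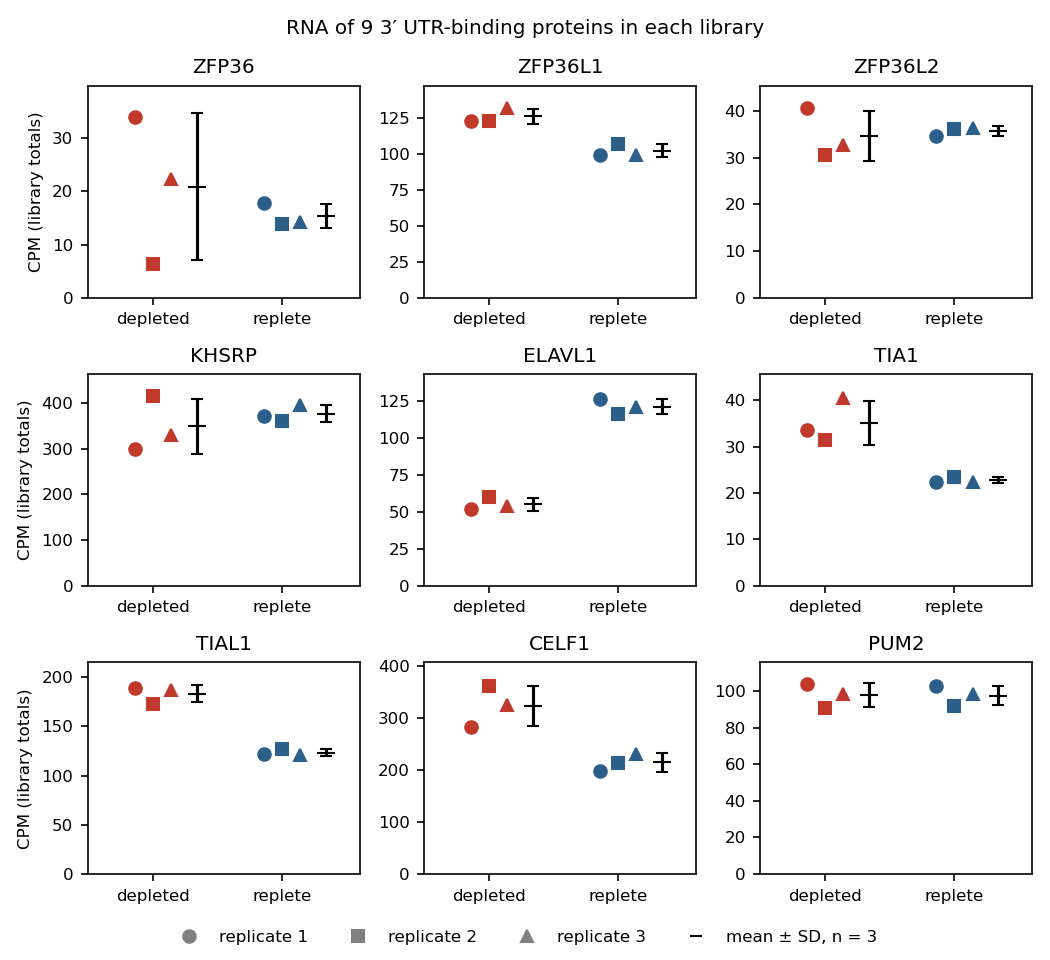
CPM of each member (y axis, library totals) in 3 depleted and 3 replete libraries. Points are libraries with a symbol per replicate number, and the black mark with bars is the mean ± SD of 3 libraries. ELAVL1 sat between 51.6 and 59.9 CPM in depleted and between 116 and 126 CPM in replete cells, and ZFP36 ran from 6.30 to 34.1 CPM over the depleted libraries.

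Among the destabilising zinc-finger proteins, ZFP36L1 alone passed the test. It had 123, 123 and 132 CPM in depleted libraries, against 98.9, 107 and 99.2 CPM in replete libraries. Every depleted library was above every replete one, with means of 126 ± 5.08 and 102 ± 4.50 CPM (SD, n = 3 each), and the log2 fold change was 0.54 (SE 0.08, adjusted p = 2.64e-05 in edgeR). ZFP36L2, their close relative, had 40.7, 30.6 and 32.8 CPM in depleted libraries, against 34.6, 36.2 and 36.4 CPM in replete libraries. The groups overlapped, with depleted replicate 1 highest and depleted replicate 2 lowest of all 6, and the log2 fold change of 0.19 (SE 0.11) did not pass (adjusted p = 0.151 in edgeR).

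ZFP36, the founding member and itself a fast-turnover immediate early transcript, varied more between depleted libraries than between the groups. It had 34.1, 6.30 and 22.4 CPM in depleted libraries, from 372, 55 and 194 counts, against 17.9, 13.9 and 14.3 CPM in replete libraries. Depleted replicates 1 and 3 were above all replete libraries and depleted replicate 2 was below them, so the coefficient of variation was 66.7% in depleted and 14.5% in replete cells. The log2 fold change of 0.68 (SE 0.62) did not pass (adjusted p = 0.365 in edgeR). Without depleted replicate 2 it was 1.11 (adjusted p = 2.67e-06 in edgeR), and without depleted replicate 1 it was 0.13 (adjusted p = 0.854 in edgeR).

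Whether one paralog moved more than another was tested on the log2 ratio of their CPM within each library, over 4 pairs. The ZFP36L1 to ZFP36L2 ratio was 1.59, 2.0 and 2.0 on the log2 scale in depleted libraries, against 1.51, 1.55 and 1.44 in replete libraries. Its mean was thus higher by 0.37 in depleted cells, with no overlap between groups (exact two-sided permutation p = 0.10, the smallest that 3 against 3 allows, and 0.40 adjusted over the 4 pairs). ZFP36 relative to ZFP36L1 differed by −0.17 and relative to ZFP36L2 by 0.20, each with an SD over 1 in depleted cells (exact permutation p = 0.900 for both). Only 1 of the 4 pairs, ZFP36L1 and ZFP36L2, had ranges that did not overlap, and no pair passed.

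KHSRP, a KH-domain protein that promotes decay of AU-rich mRNAs, had 299.7, 415 and 331 CPM in depleted libraries, against 372, 361 and 397 CPM in replete libraries. Depleted replicate 2 was the highest of all 6 libraries and depleted replicate 1 the lowest. Its log2 fold change was 0.12 (SE 0.11, adjusted p = 0.345 in edgeR), and it was −0.03 without depleted replicate 2 and 0.22, which passed, without depleted replicate 1. A pseudogene named after this gene, KHSRPP1, is annotated, so some reads may be uncertain, but the sequences were not compared. For none of the 9 members did exons overlap those of another counted gene in GENCODE 29.

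ELAVL1, the ubiquitous member of the Hu family, had 51.6, 59.9 and 53.8 CPM in depleted libraries, against 126, 116 and 121 CPM in replete libraries. The groups were far apart, at 55.1 ± 4.32 CPM in depleted and 121 ± 5.22 CPM in replete cells (SD, n = 3 each). Its log2 fold change was −0.91 (SE 0.09, adjusted p = 5.70e-07 in edgeR), and it fell in all 15 alternative fits, over which its log2 fold change ran from −1.14 to −0.85. In bulk RNA, fewer cells with the transcript and less transcript per cell cannot be told apart. The genes whose profile over the 6 libraries was nearest to that of ELAVL1, by Euclidean distance of centred log2 CPM among 8498 genes of at least 10 CPM on average, were UBE2C, CYB5A and PPIA, at distances of 0.04 to 0.09. PPIA encodes the prolyl isomerase cyclophilin A and UBE2C a ubiquitin-conjugating enzyme of mitotic exit.

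The translational silencers TIA1 and TIAL1 rose together. TIAL1 had 189, 173 and 187 CPM in depleted libraries, against 122, 127 and 121 CPM in replete libraries. The groups did not overlap, and its log2 fold change of 0.79 (SE 0.07, adjusted p = 3.65e-07 in edgeR) had the smallest p of all members. TIA1 had 33.6, 31.5 and 40.6 CPM in depleted libraries, against 22.4, 23.5 and 22.5 CPM in replete libraries, again without overlap (log2 fold change 0.85, SE 0.12, adjusted p = 1.77e-05 in edgeR). The TIA1 to TIAL1 ratio averaged −2.38 ± 0.16 in depleted and −2.42 ± 0.01 in replete cells on the log2 scale (SD, n = 3 each), a difference of 0.05 (exact permutation p = 1.00). Nearest in profile to TIAL1 were ASNS, the glutamine-using asparagine synthetase, with FAM175B and TIMM17A, a subunit of mitochondrial protein import, each at a distance of 0.07. ASNS had 567, 515 and 575 CPM in depleted libraries, against 368, 372 and 373 CPM in replete libraries.

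CELF1, which binds GU-rich elements and recruits a deadenylase, had 283, 360.3 and 324 CPM in depleted libraries, against 197, 213 and 231 CPM in replete libraries. All depleted values were above all replete values, and the log2 fold change was 0.82 (SE 0.10, adjusted p = 4.35e-06 in edgeR). PUM2, a Pumilio repressor, had 104, 91.1 and 98.5 CPM in depleted libraries, against 103, 92.1 and 98.4 CPM in replete libraries. These CPM values lay side by side, at 98.0 ± 6.66 in depleted and 97.7 ± 5.29 in replete cells (SD, n = 3 each). The PUM2 call (log2 fold change 0.23, SE 0.08, adjusted p = 0.0201 in edgeR) therefore came from the TMM factors, and with library totals alone the log2 fold change was 0.00 (adjusted p = 0.959 in edgeR). The PUM2 call was also lost without depleted replicate 1 (0.19) or any 1 of the replete libraries (0.17 to 0.24).

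**Figure D2:**
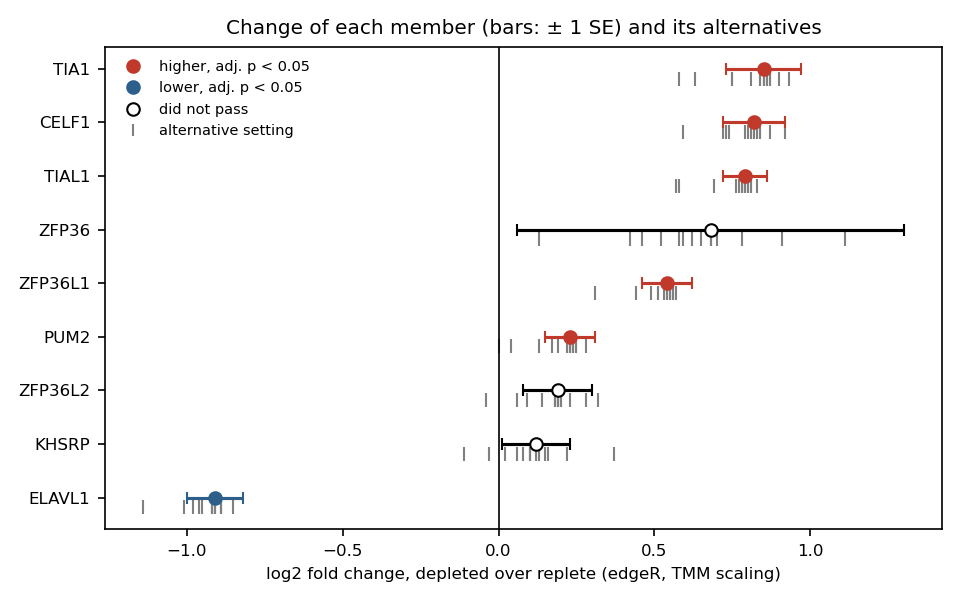
Log2 fold change of each member, depleted over replete (x axis), with bars of ± 1 SE from edgeR and grey ticks for 15 alternative fits. ELAVL1 is the only member left of 0 in every fit, and ZFP36 has the widest bar, at an SE of 0.62.

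Depleted replicate 2 stood apart from the other depleted libraries, at a chi-square over genes, divided by its degrees of freedom, of 18.0 against depleted replicate 1 and 10.9 against depleted replicate 3, where the other pairs within a group had 1.496 to 3.71. Without it, 7 members rose and 1 fell, beside 40.4% of all genes higher and 41.3% lower in that fit. ZFP36 and ZFP36L2 were the members gained. On the log2 CPM scale with TMM factors, depleted replicate 2 differed from the mean of depleted replicates 1 and 3 by −2.08 for ZFP36, and 0.283% of all tested genes had a lower difference. The other members lay between −0.24 and 0.42.

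Transcripts known as targets of AU-rich element binders shared that library's low values in part. IL6 had 78.3, 3.21 and 37.1 CPM in depleted libraries, against 83.6, 79.3 and 64.0 CPM in replete libraries, and depleted replicate 2 was lowest of all 6. LIF, a cytokine of the same family, had 160.3, 23.8 and 108 CPM in depleted libraries, against 27.5, 26.6 and 26.0 CPM in replete libraries. Neither passed in edgeR, at log2 fold changes of −0.69 for IL6 (adjusted p = 0.542) and 2.09 for LIF (adjusted p = 0.0615), and without depleted replicate 2 LIF passed at 2.56 (adjusted p = 6.64e-04). In depleted replicate 2, the log2 difference from the mean of the other depleted libraries was −3.97 for IL6, −2.44 for LIF, −1.13 for FOS, −1.06 for the chemokine CXCL8 and −0.85 for MYC. Of 31 tested transcripts of the list, 18 were lowest in depleted replicate 2 among depleted libraries (58.1%), beside 36.3% of all tested genes, and 11 were highest there (35.5%), beside 43.3%. JUN, MCL1 and SIRT1 differed by 0.10 or less, and CDKN1A, PLK3, IER3 and CCNB1 by 0.30 to 0.34. Some genes outside this list were also low in depleted replicate 2. In depleted libraries ATXN2L had 276, 20.3 and 130.1 CPM and LSM14A had 213, 76.2 and 194 CPM. Whether the ZFP36 level has a part in any of these differences was not tested.

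**Figure D3:**
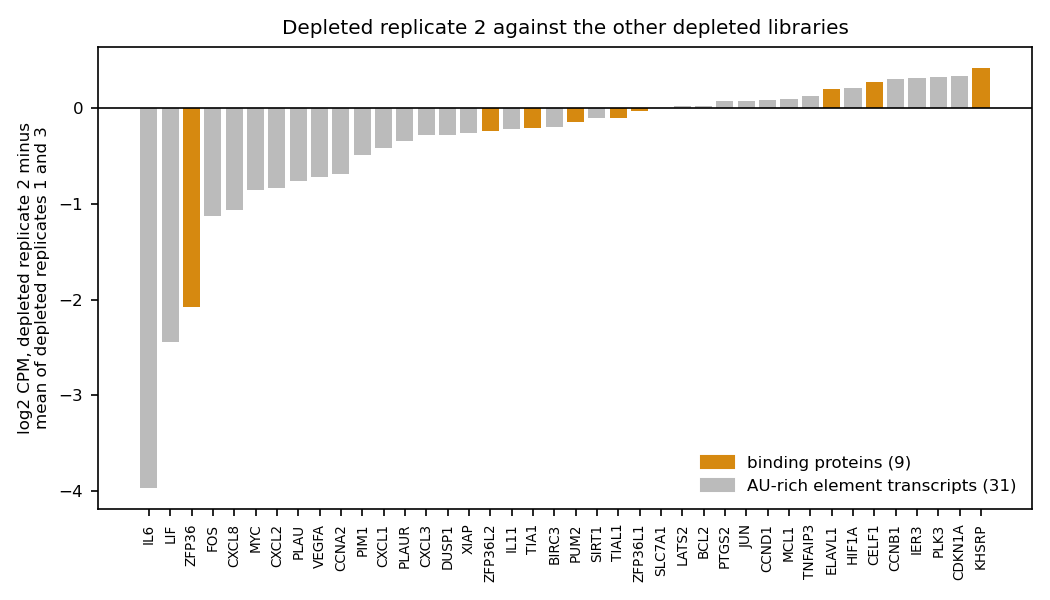
Log2 CPM in depleted replicate 2 minus the mean of depleted replicates 1 and 3 (y axis, TMM scaling) for the 9 binding proteins (orange) and 31 AU-rich element transcripts (grey). The 31 transcripts are reported targets, of which 18 held the AU-rich nonamer and 26 the heptamer. IL6, LIF and ZFP36 were lowest, at −3.97, −2.44 and −2.08.

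Across the groups, most of the AU-rich element transcripts were higher in depleted cells. The list held 34 genes reported as targets of these binders in other systems. It was chosen with earlier results of these data known, so its shares are a description only. Of 31 tested, 23 rose (74.2%), 5 fell (16.1%) and 3 did not pass, beside 39.1% higher and 39.4% lower of all genes. The median log2 fold change was 1.75, beside −0.02 over all genes. Of these 31 genes, 18 held the AU-rich nonamer in the longest 3′ UTR and 26 the heptamer. JUN, an AP-1 subunit, rose to 1041 ± 49.8 CPM, against 14.98 ± 1.42 CPM in replete cells. LATS2, a Hippo kinase whose mRNA is a tristetraprolin target, rose to 349 ± 0.300 CPM, against 39.4 ± 2.56 CPM, and the cell cycle inhibitor CDKN1A, an mRNA bound by HuR, rose to 981 ± 134 CPM, against 79.5 ± 3.94 CPM (n = 3 per group). FOS rose by 3.81 on the log2 scale (adjusted p = 5.06e-04 in edgeR), the prostaglandin synthase PTGS2 by 2.39 (1.77e-08), CXCL8 by 2.09 (0.00649) and MYC by 0.80 (0.0193). MYC did not pass with library totals alone (0.58, adjusted p = 0.0742 in edgeR) or no count filter (0.80, 0.0851), nor without depleted replicate 3 (0.75, 0.0527), replete replicate 1 (0.82, 0.0543) or replete replicate 2 (0.76, 0.0622).

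The members of the list that fell included the cyclins CCNA2 and CCNB1, whose mRNAs are HuR targets. CCNA2 fell to 31.3 ± 8.33 CPM, against 149 ± 5.15 CPM in replete cells, CCNB1 to 27.5 ± 4.35 CPM, against 92.4 ± 4.40 CPM, and the kinase PIM1 to 7.74 ± 1.79 CPM, against 28.1 ± 1.99 CPM (n = 3 per group). SIRT1 and SLC7A1, also bound by HuR, went the other way, at log2 fold changes of 3.15 and 1.52. TNF, the best-known tristetraprolin target, had 8, 7 and 3 counts in depleted libraries, against 2, 0 and 0 counts in replete libraries, and was too low to be tested. CSF2 had no count in any library. Many genes of this list are immediate early or inflammatory genes, and transcription and decay are not separated by these data.

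**Figure D4:**
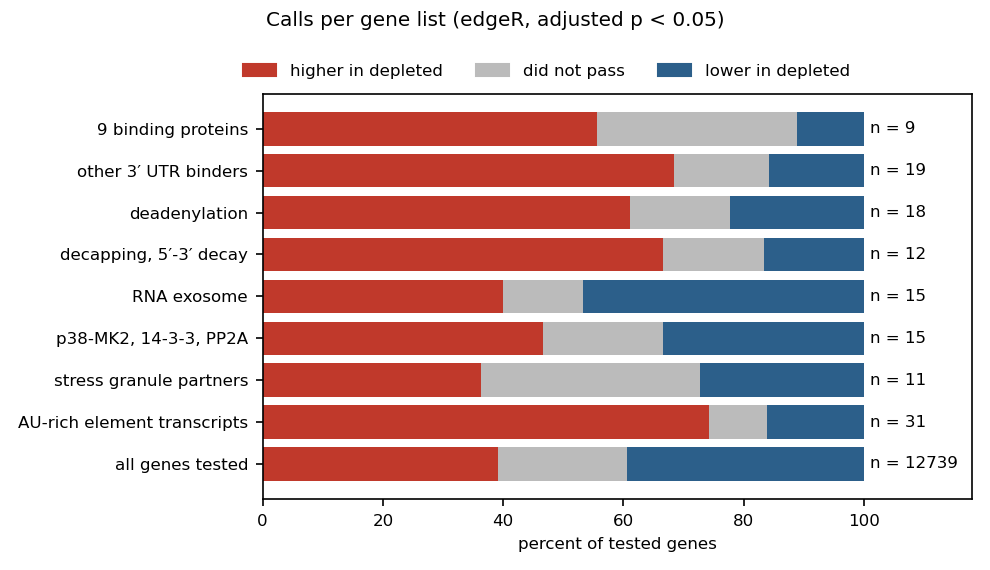
Percent of tested genes (x axis) higher, lower or not passing in depleted against replete cells, for the 9 members, 7 companion lists and all genes, with the number tested at the right. The AU-rich element transcripts had 74.2% higher and 16.1% lower, beside 39.1% and 39.4% of all genes. The lists were chosen with earlier results of these data known, so the shares are a description only.

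Other 3′ UTR binders were mostly higher. Of 22 listed, 19 were tested, 13 rose (68.4%), 3 fell (15.8%) and 3 did not pass, with a median log2 fold change of 0.51. This list and those below are to be read beside 39.1% of all tested genes higher and 39.4% lower. With library totals alone, 9 binders were higher and 4 lower, where 4132 of all 12739 genes were higher and 5924 lower. IGF2BP2, which stabilises bound mRNAs, rose to 127 ± 1.51 CPM, against 23.5 ± 0.531 CPM in replete cells (n = 3 in each group, log2 fold change 2.66, adjusted p = 1.75e-11 in edgeR). RC3H1 (Roquin), which directs decay through stem-loops, rose by 2.30 on the log2 scale. HNRNPAB fell by 0.74, YBX1 by 0.57 and FXR1 by 0.42, of which YBX1 did not pass with no count filter (−0.58, adjusted p = 0.0824 in edgeR). HNRNPD, the AU-rich binder AUF1, averaged 276 ± 4.83 CPM in depleted and 336 ± 13.8 CPM in replete cells (SD, n = 3 each), and its log2 fold change of −0.06 under TMM scaling did not pass (adjusted p = 0.418 in edgeR). It passed with library totals alone (−0.29), with a mean CPM of at least 10 (−0.16) and with each library corrected for a trend over GC content and transcript length (−0.19).

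Deadenylation genes, which carry out the first step of decay for mRNAs bound by the ZFP36 family, moved in both directions. Of 18 tested, 11 rose (61.1%) and 4 fell (22.2%), beside 39.1% and 39.4% of all genes, and the median log2 fold change was 0.36. With library totals alone, 8 were higher and 7 lower, a scaling that also gave 4132 higher and 5924 lower over all genes. Without depleted replicate 3 or without replete replicate 1, 2 fell. The smallest p-values among those that rose belonged to the CCR4-NOT partners BTG2, at 182 ± 14.3 CPM in depleted and 7.95 ± 1.64 CPM in replete cells, and BTG1, at 393 ± 14.97 CPM in depleted and 145 ± 3.89 CPM in replete cells (SD, n = 3 each). CNOT4, a ubiquitin ligase associated with the complex, rose by 1.5, and its scaffold CNOT1 rose by 0.40, which did not pass with library totals alone (0.17). TOB1, the related adaptor, fell to 18.9 ± 3.97 CPM, against 68.4 ± 2.13 CPM, the deadenylase CNOT6L fell by 1.11 and the poly(A) ribonuclease PARN by 0.38. PARN did not pass with DESeq2 (−0.37), nor without depleted replicate 3 (−0.37) or replete replicate 1 (−0.25).

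Decapping and 5′-to-3′ decay genes were mostly higher, with 8 of 12 higher (66.7%) and 2 lower (16.7%), beside 39.1% and 39.4% of all genes. Their median log2 fold change was 1.01. LSM1, of the ring that binds deadenylated ends, rose to 109 ± 5.23 CPM, against 34.0 ± 0.560 CPM in replete cells, and the decapping helicase DDX6 rose to 540 ± 29.6 CPM, against 228 ± 9.59 CPM (n = 3 per group). The decapping activator DCP1A rose by 1.86 and the exonuclease XRN1 by 0.60 on the log2 scale. DCP2, the decapping enzyme, had a log2 fold change of 0.04 (adjusted p = 0.693 in edgeR), and −0.26 (adjusted p = 0.0222 in edgeR) with the GC and length trend removed and −0.18 (0.103) with library totals alone. The scavenger enzyme DCPS fell by 1.08 and the 4E transporter EIF4ENIF1 fell by 0.41. EIF4ENIF1 did not pass without depleted replicate 1 (−0.30), depleted replicate 3 (−0.39), replete replicate 1 (−0.42) or replete replicate 3 (−0.36), which left 1 lower gene in the list, nor with DESeq2 (−0.39) or the GC and length trend removed (−0.35). The RNA exosome and its SKI partners degrade from the 3′ end. Of these 15 genes, 6 rose (40.0%) and 7 fell (46.7%, median −0.33), beside 39.1% and 39.4% of all genes. Among the exosome's nucleases, DIS3 and DIS3L rose by 0.93 and 0.96, whereas EXOSC10 did not pass (0.02, adjusted p = 0.907 in edgeR). The subunit EXOSC6 rose by 1.32. EXOSC4 fell by 1.41, the SKI helicase SKIV2L by 1.26 and EXOSC7 by 0.63.

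The p38-MK2 route phosphorylates ZFP36 and its paralogs, 14-3-3 proteins hold the phosphorylated forms, and PP2A reverses this. Of 15 genes on this list, 7 rose (46.7%) and 5 fell (33.3%, median 0.03), beside 39.1% and 39.4% of all genes. With library totals alone, 6 rose and 7 fell. MAP2K3, a kinase that activates p38, rose to 3965 ± 315 CPM, against 349 ± 26.4 CPM in replete cells (log2 fold change 3.73, adjusted p = 6.67e-13 in edgeR), whereas MAP2K6, the other such kinase, fell to 1.15 ± 0.309 CPM, against 9.67 ± 1.42 CPM (n = 3 per group). MAPKAPK2 (MK2) rose by 1.6 and the PP2A catalytic subunit PPP2CA by 1.89, while the PP2A scaffold PPP2R1A fell by 0.83 and the 14-3-3 sigma gene SFN by 1.21. Other 14-3-3 genes differed: YWHAZ rose by 1.20, YWHAG by 1.06 and YWHAE by 0.30, YWHAQ fell by 0.19, and YWHAB and YWHAH did not pass. With library totals alone YWHAE did not pass (0.07), and YWHAB (−0.33) and YWHAH (−0.34) passed as lower. YWHAQ did not pass with DESeq2 (−0.17) or without replete replicate 1 (−0.18). MAPK14, p38 alpha itself, had a log2 fold change of 0.03 (adjusted p = 0.813 in edgeR), and −0.20 with library totals alone. RNA says nothing of the phosphorylation of these proteins.

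Of 11 partners of TIA1 and TIAL1 in stress granules, 4 were higher (36.4%) and 3 lower (27.3%, median 0.11). Over all genes these shares were 39.1% and 39.4%. With library totals alone, 3 partners were higher and 5 lower. UBAP2L rose to 225 ± 10.5 CPM, against 82.5 ± 3.99 CPM in replete cells, FXR2 rose by 1.31 and ATXN2 by 0.85 on the log2 scale. The granule scaffold G3BP1 fell to 84.1 ± 1.63 CPM, against 152 ± 11.4 CPM, its partner CAPRIN1 fell by 0.91 and PABPC4 by 0.89 (n = 3 per group). PABPC1, the main cytoplasmic poly(A)-binding protein, had a log2 fold change of −0.05 (adjusted p = 0.596 in edgeR), and with library totals alone −0.27, which passed.

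The AU-rich nonamer was then looked for in the longest annotated 3′ UTR of every tested gene. Of 1091 genes with it, 48.3% rose and 31.8% fell, with a median log2 fold change of 0.29. Of 10214 genes without it, 38.7% rose and 40.7% fell, with a median of −0.05. In 3 classes of 3′ UTR length with about equal numbers of genes, the share that rose was 53.6% with against 33.6% without the nonamer up to 814 bases, 45.3% against 40.1% in the middle class, and 48.7% against 43.3% above 2207 bases. Genes with the nonamer had longer 3′ UTRs, at a median of 3096 against 1272 bases, and more A and T, at 62.0% against 57.4%. Within the classes their 3′ UTRs were also longer, at medians of 593 against 397, 1509 against 1382 and 4417 against 3449 bases. Of 261 genes with 2 or more nonamers, 47.1% rose and 32.6% fell, with a median log2 fold change of 0.19. From the shortest to the longest class, 84.6% of 13, 46.8% of 62 and 44.6% of 186 such genes rose. With each library corrected for transcript length and GC content, the medians were 0.22 with and −0.03 without the nonamer, and with library totals alone they were 0.07 and −0.28. These are counts over genes that are not independent, given as a description with no test.

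**Figure D5:**
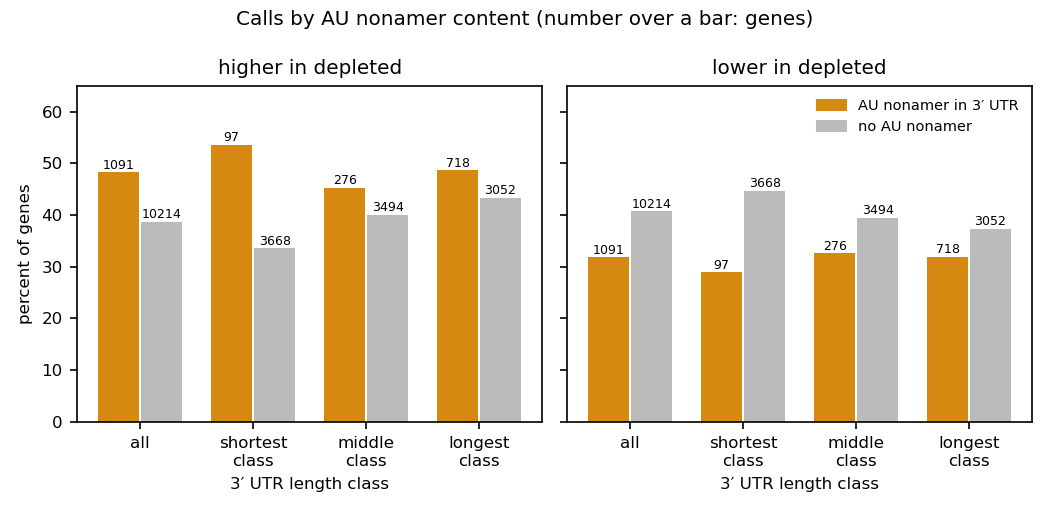
Percent of genes (y axis) higher (left) and lower (right) in depleted cells, with and without the AU-rich nonamer in the 3′ UTR, for all genes and 3 classes of 3′ UTR length. Numbers over bars are genes, and the widest gap is in the shortest class, at 53.6% with and 33.6% without the nonamer among higher genes.

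Cell type markers were checked in the same libraries. The keratins KRT8, KRT18 and KRT19 were detected in all 6 libraries, whereas EPCAM and CDH1 were at or near 0, and the summed level of the 5 epithelial markers was 761 to 881 CPM in depleted and 2067 to 2092 CPM in replete cells. Most of that gap was KRT19, at 290.1 to 379.7 CPM in depleted and 1392 to 1414 CPM in replete libraries. KRT18 had 376 to 423 and 478 to 479 CPM, and KRT8 had 72.1 to 95.1 and 196 to 199 CPM. Of 6 blood markers, CD68 alone averaged at least 1 CPM, the 4 endothelial markers summed to at most 0.115 CPM in depleted and 0.665 CPM in replete cells with VWF and CDH5 at 0, and 5 fibroblast markers summed to 32.8 to 91.3 CPM in depleted and 24.7 to 36.3 CPM in replete cells. The highest of these sums, in depleted replicate 3, held 56.5 CPM of COL1A1, which had 7.51 and 6.19 CPM in depleted replicates 1 and 2. Their part in the members' changes was not tested.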

How the data were processed

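Per the labels, libraries were made with the Lexogen QuantSeq 3′ kit from 500 ng of TRIzol-purified total RNA. Bowtie2, edgeR and hg19 appear in the submitters' processing notes, with neither role nor version. The counter, the annotation and whether strand was used are not given in the sources used here. The deposited values are raw counts per gene symbol, 1 library per file. Counts of 286 symbols on several entries were summed, which touched none of the 9 members. In the companion lists it touched TNF (8 entries), IER3 (6) and SKIV2L (6). Genes passed edgeR's filterByExpr (minimum count 10, minimum total 15), were scaled by TMM factors and tested between groups with the robust quasi-likelihood test (edgeR 4.0.16, R 4.3.3), two-sided, with Benjamini-Hochberg adjustment over 12739 genes. SE is the absolute log2 fold change over the square root of F. The fit was also tested on simulated counts. Log2 CPM for ratios and profiles used a prior count of 2. 3′ UTRs came from the basic GENCODE 29 protein-coding transcripts (GRCh38), matched by symbol for 88.7% of tested genes; no coordinates were taken, since the builds differ.

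Members, lists and tests were chosen with earlier results of these data known. The text names all members, the 3 genes with the smallest p in each called direction of each list, 14 genes in any case, and the 3 nearest profiles of the member with the smallest p in each direction. One gene that this rule names is not reported here. IL6, LIF, SIRT1, SLC7A1, MCL1, PLK3, IER3, CSF2 and the profiles near ZFP36 were named after their values were seen. So were ATXN2L, LSM14A, EXOSC10 and the 14-3-3 genes other than SFN. Replicate numbers are shared between groups, but same-numbered libraries did not all deviate together, so the numbers were not used as pairs. As alternatives, scaling was by DESeq2 size factors or by library totals alone, genes were unfiltered or filtered at 10 CPM on average, and further fits used a replicate block, DESeq2 1.42.0, limma-voom (limma 3.58.1), the largest entry per symbol, removal of a loess trend (span 0.5) over GC content and length, and leaving out each library. Tables used Python 3.11.15, numpy 2.4.6 and pandas 2.3.3.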

Additional observations from a re-analysis of the deposited data

How the results depend on the processing

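Over 15 alternatives, 4 to 7 members rose and 1 fell. ELAVL1, TIA1, TIAL1, CELF1 and ZFP36L1 kept their direction and an adjusted p under 0.05 in all 15. With library totals alone, the log2 fold change was −0.04 for ZFP36L2, −0.11 for KHSRP and 0.00 for PUM2. With the GC and length trend removed, ZFP36L2 (0.32) and KHSRP (0.37) passed and PUM2 (0.04) did not, and with a mean CPM of at least 10 PUM2 was at 0.13 and did not pass. The cause was not tested. Leaving out 1 library at a time gave 0.13 to 1.11 for ZFP36, which passed without depleted replicate 2 only, 0.06 to 0.28 for ZFP36L2, which passed without depleted replicate 2 only, −0.03 to 0.22 for KHSRP, which passed without depleted replicate 1 only, and 0.17 to 0.28 for PUM2, which passed without depleted replicate 2 or 3 only. The same settings gave differences of −0.68 to 0.52 between ZFP36 and ZFP36L1, −0.18 to 0.81 between ZFP36 and ZFP36L2, and −0.04 to 0.10 between TIA1 and TIAL1. Of 210 list counts under alternatives, 200 were within 1.5 times the count given above. The others were the deadenylation genes that fell (4, against 7 with library totals alone and 2 with DESeq2 or without depleted replicate 3 or replete replicate 1), the decapping genes that fell (2, against 1 with DESeq2 or without any 1 of 4 libraries) and the stress granule genes that fell (3, against 5 with library totals alone). The AU-rich nonamer settings were chosen after seeing the data.

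With the replicate number as a block, 5 members rose and 1 fell, as without it, and no member's call changed. Same-numbered libraries had correlations of 0.20, 0.05 and 0.03 between their deviations from the group means over 8507 genes, and depleted replicate 2 correlated best with replete replicate 3, at 0.10. ZFP36 and TNF rested on 55 and 3 counts in their lowest depleted libraries, and IL6 on 28.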

Other observations

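The profiles nearest to that of ZFP36 over the 6 libraries, among 8498 genes of at least 10 CPM on average, were those of CC2D1B, TFB2M and LOC104968399, at distances of 0.30 to 0.44 on the log2 scale. TFB2M, a mitochondrial transcription factor, had 55.9, 13.97 and 38.5 CPM in depleted libraries, against 29.7, 23.1 and 27.1 CPM in replete libraries, so that depleted replicate 2 was again the lowest and depleted replicate 1 the highest of all 6. CC2D1B had 33.3, 7.45 and 24.6 CPM in depleted libraries, against 17.1, 16.3 and 16.2 CPM in replete libraries.

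The same shares were taken for the motifs of PUM2 and CELF1. With the Pumilio motif, 44.1% of 3465 genes rose and 36.4% fell, beside 37.7% and 41.3% of genes without it. In the shortest of 3 length classes, 37.98% rose and 44.4% fell with the motif, beside 33.7% and 44.2% without it. In the middle class 44.5% rose and 35.2% fell with it, beside 38.99% and 40.4%, and in the longest 45.1% and 35.5%, beside 43.5% and 37.2%. With the GU-rich stretch, 46.3% of 1125 genes rose and 33.7% fell, beside 38.9% and 40.5% without it, and by class 33.96% rose with it and 34.1% without it in the shortest, where 53 genes held it, 42.4% and 40.3% in the middle class, and 48.6% and 43.2% in the longest. No test was made of these shares, and 3′ UTR length differs between the sets, at medians of 2684 and 995 bases for the Pumilio motif and 3197 and 1246 bases for the GU-rich stretch, with and without the motif.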
